A study of Mus musculus with 12 samples.

Results

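The genes that control passage from G1 into S phase were measured by RNA sequencing in cells that the labels call HSCs, isolated from the liver of wild-type mice and taken here to be hepatic stellate cells, the pericytes that store vitamin A in that organ. The set has 10 genes, taken by symbol out of the 53452 genes in the count table. It holds the D cyclins Ccnd1, Ccnd2 and Ccnd3, the kinases Cdk4 and Cdk6, the inhibitors Cdkn1b, Cdkn2a, Cdkn2b and Cdkn2c, and the retinoblastoma gene Rb1. All 10 genes passed the filter on low counts, which left 16036 genes for testing.

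There were 4 groups of 3 libraries. In each of them the cells were cultured for 12 h after isolation, the medium was changed, and RNA was collected 24 h later. DMSO, the solvent, was present for the last 12 h in the control group. Riociguat, which stimulates soluble guanylate cyclase and so raises cyclic GMP, was present for the last 6 h, the last 12 h or the whole 24 h in the other groups, and was therefore added 18 h, 12 h or 0 h after the medium change. Only the 12 h riociguat group matches the DMSO group in the time of addition, so that in the 6 h and 24 h comparisons the compound and the time of exposure cannot be told apart. The 3 comparisons with DMSO share the same DMSO libraries. The sources used here give no dose. No label ties replicates to separate animals or isolations, so that the p-values reflect spread among these samples alone, and this spread can be technical.

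D cyclins bind CDK4 or CDK6, and the active kinases phosphorylate the retinoblastoma protein RB1, which then lets go of the E2F transcription factors that drive genes of DNA replication. Proteins of the INK4 family, encoded by Cdkn2a, Cdkn2b and Cdkn2c, bind CDK4 and CDK6 and keep D cyclins away from them, while p27Kip1, encoded by Cdkn1b, inhibits the cyclin E and cyclin A kinases and also sits on cyclin D complexes. In the liver, quiescent stellate cells enter the cell cycle when they become activated after injury or in culture.

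Library totals lay between 12953096 and 27358893 counts, both in the 6 h riociguat group. DMSO replicate 1 stood further from DMSO replicates 2 and 3 than other replicates stood from each other, with chi-square values per degree of freedom of 12.3 and 16.03, against a lowest value of 4.08 over all pairs of replicates. Markers of stellate cells were present in all groups: the 12 listed genes summed to between 3201 and 3341 CPM at 6 h of riociguat, 3169.9 and 3303 CPM at 12 h, 3165 and 3336 CPM at 24 h, and 3399 and 3552 CPM in DMSO. Single genes of that list moved both ways against DMSO, with 1 risen and 2 fallen at 6 h, 1 risen and 3 fallen at 12 h, and 5 risen and 4 fallen at 24 h. CPM is a gene's count relative to the TMM-scaled library total. Other liver cell types were seen by their markers as well, and some of these moved between groups. Those of endothelial cells summed to between 2080 and 2211 CPM at 6 h of riociguat, where 5 of 12 rose and 1 fell, between 1771 and 1891 CPM at 12 h, where 2 fell, and between 1707 and 1776 CPM at 24 h, where 2 rose and 5 fell, against 1912 to 2042 CPM in DMSO. Those of hepatocytes summed to between 1097 and 1231 CPM at 6 h of riociguat, where 1 of 12 rose, against 1246 to 1295 CPM in DMSO. At 12 h their sum was between 1177 and 1430 CPM, with 0 risen and 0 fallen. At 24 h it was between 637 and 857 CPM, where 8 of 12 fell. Those of macrophages summed to between 123 and 129 CPM at 6 h of riociguat, where 1 of 11 tested fell, and to between 152 and 170.3 CPM at 24 h, where 1 rose, against 139 to 150 CPM in DMSO, and the macrophage gene Timd4 was at 0 counts in the 6 h and 24 h groups. The 8 cholangiocyte markers, which include Spp1, summed to between 562 and 608 CPM in DMSO. Their sum was 524 to 573 CPM at 6 h of riociguat, where 2 of 7 tested fell. At 12 h it was 673 to 766 CPM, where 1 rose, and at 24 h 999 to 1043 CPM, where 1 rose. The median log2 fold change of the 7 tested was -0.14 at 24 h, so the higher sum was not shared by most of them. The 10 markers of portal fibroblasts and mesothelium summed to between 758 and 772 CPM at 6 h of riociguat, where 1 of 9 tested rose and 1 fell, 879 and 909 CPM at 12 h, and 813 and 837 CPM at 24 h, where 2 fell, against 872 to 954 CPM in DMSO. The 8 lymphocyte markers summed to under 5 CPM in every library. In bulk RNA, fewer cells of a type and less RNA per cell cannot be told apart, and the part of these cells in the results below was not tested.

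Promoter windows, from 250 bases before to 50 bases after the start, were found in RefSeq (GRCm38.p6) for 7 of the 10 genes. Those of Cdkn2b, Cdkn1b and Cdk6 are shown because these are the inhibitors that rose and the kinase that fell in at least 1 comparison with DMSO. Capitals mark the cyclic AMP response element TGACGTCA or the E-box CACGTG, both searched on both strands. Motifs named AP-1, E2F, TEAD, FOXO and GC box were searched as well and are not marked. The GC box GGGCGG, present in 35.7% of all windows, occurs in those of Cdkn2b and Cdkn1b. Cdkn2b lies on the minus strand (chr4:89310983-89311282), Cdkn1b on the plus strand (chr6:134920151-134920450) and Cdk6 on the plus strand (chr5:3343643-3343942).
Cdkn2b: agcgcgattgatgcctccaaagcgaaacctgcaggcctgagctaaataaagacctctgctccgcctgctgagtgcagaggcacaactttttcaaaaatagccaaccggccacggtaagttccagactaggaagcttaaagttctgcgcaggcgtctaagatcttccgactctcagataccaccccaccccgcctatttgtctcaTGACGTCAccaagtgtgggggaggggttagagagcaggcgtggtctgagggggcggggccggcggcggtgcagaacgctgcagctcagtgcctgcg
Cdkn1b: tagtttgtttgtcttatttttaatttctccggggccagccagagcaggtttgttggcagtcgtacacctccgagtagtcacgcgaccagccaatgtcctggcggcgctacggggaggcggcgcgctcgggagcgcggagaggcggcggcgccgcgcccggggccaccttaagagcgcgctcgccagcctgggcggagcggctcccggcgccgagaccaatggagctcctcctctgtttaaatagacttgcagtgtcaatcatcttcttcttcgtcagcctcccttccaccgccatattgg
Cdk6: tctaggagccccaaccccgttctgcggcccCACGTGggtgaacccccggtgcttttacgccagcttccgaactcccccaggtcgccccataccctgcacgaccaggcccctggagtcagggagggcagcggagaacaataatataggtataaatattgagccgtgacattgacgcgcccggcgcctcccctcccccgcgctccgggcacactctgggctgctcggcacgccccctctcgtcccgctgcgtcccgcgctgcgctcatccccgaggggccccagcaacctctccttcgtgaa

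The Cdkn2b window holds 1 cyclic AMP response element, 46 bases before the start. Such an element is present in 1.79% of 32851 windows of the same length, and Cdkn2b is the only one of the 7 genes with an entry that has it. The Cdk6 window holds 1 E-box, and 7.15% of all windows hold at least 1. That of Cdkn1b holds neither. The Cdk4 window holds 4 E-boxes. A match describes letters in this window and says nothing of a factor bound there.

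The largest fold change of the set against DMSO, at 6 h, was that of Ccnd1, the cyclin D1 gene (ENSMUSG00000070348, chromosome 7, 144929931 to 144939925, minus strand of GRCm38). After 6 h of riociguat its 3 libraries had 99.3, 99.3 and 93.8 CPM, against 188, 186 and 196 CPM in DMSO. After 12 h they had 139, 124 and 142 CPM, and after 24 h 161, 169.6 and 185 CPM. Each riociguat library therefore lay below every DMSO library, least far below at 24 h, where the highest riociguat library and the lowest DMSO library nearly met. The log2 fold change against DMSO was -0.97 ± 0.06 at 6 h (SE, edgeR quasi-likelihood test, adjusted p = 1.69e-08), a fold of 0.512. It was -0.50 ± 0.06 at 12 h (edgeR adjusted p = 2.41e-05) and -0.15 ± 0.06 at 24 h, which did not pass the test (edgeR adjusted p = 0.112). Its change at 6 h was larger in size than that of 96.8% of the tested genes.

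Ccnd1 shares 1100 of its 4709 exon bases with LTO1 on the opposite strand, and the sources used here do not say whether counting used strand. LTO1 itself had 15.7 ± 1.11 CPM after 6 h of riociguat and 16.1 ± 1.68 CPM in DMSO (SD, n = 3 each), with no call in edgeR (adjusted p = 0.908).

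**Figure D1:**
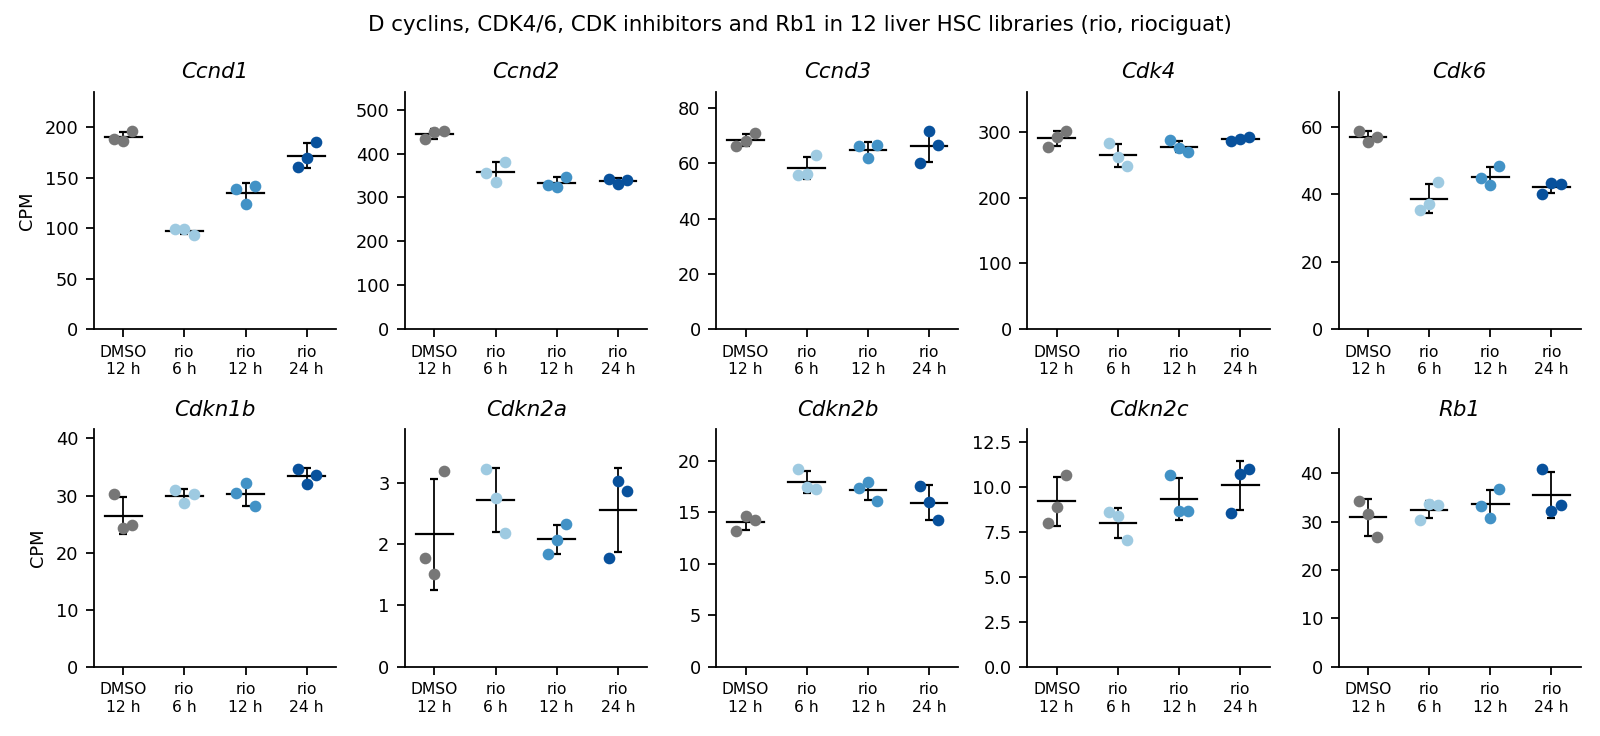
Level of each of the 10 genes in CPM (vertical axes, each from 0) by group, with 1 point per library, the mean as a horizontal line and the SD as a bar (n = 3). Ccnd1 is lowest at 6 h of riociguat, with a mean of 97.5 CPM, and Ccnd2 and Cdk6 lie below DMSO in all 3 riociguat groups.

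Ccnd2, the cyclin D2 gene (ENSMUSG00000000184, chromosome 6, 127125162 to 127152193, minus strand), was lower at every exposure. It had 356, 334 and 381 CPM after 6 h of riociguat, 329, 325 and 348 CPM after 12 h, and 343, 330.5 and 340.1 CPM after 24 h, against 432, 450.3 and 451 CPM in DMSO. All 9 riociguat libraries lay below all 3 DMSO libraries. The log2 fold change was -0.32 ± 0.05 at 6 h, -0.41 ± 0.05 at 12 h and -0.40 ± 0.05 at 24 h (SE, edgeR adjusted p = 0.00028, 1.62e-05 and 1.69e-05), or folds of 0.804, 0.751 and 0.760.

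Ccnd3, the cyclin D3 gene (ENSMUSG00000034165, chromosome 17, 47505051 to 47599691, plus strand), had the smallest log2 fold changes of the D cyclins at all 3 exposures. It had 55.8, 56.0 and 62.9 CPM after 6 h of riociguat, against 66.5, 68.0 and 70.9 CPM in DMSO. These groups did not overlap, and the log2 fold change of -0.23 ± 0.07 passed the test in edgeR (adjusted p = 0.0413). The call was lost with only the 2 groups in the fit (edgeR adjusted p = 0.0546) and when DMSO replicate 2 or 3, or replicate 1 or 2 of the 6 h group, was left out (edgeR adjusted p between 0.102 and 0.162). At 12 h, with 66.1, 61.8 and 66.7 CPM, and at 24 h, with 60.1, 71.6 and 66.8 CPM, Ccnd3 overlapped DMSO and was not called (edgeR adjusted p = 0.638 and 0.691). The 95% interval of its log2 fold change at 12 h was -0.22 to 0.06. Ccnd3 shares 361 of its 8775 exon bases with Bysl on the opposite strand, which had 932 to 2059 counts a library. Bysl had a log2 fold change of -0.06 ± 0.05 at 6 h and was not called (edgeR adjusted p = 0.507).

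Set per length, the 3 D cyclin genes summed to 65.3 ± 2.29 CPM per kb of exon after 6 h of riociguat, 71.5 ± 3.45 after 12 h and 79.9 ± 2.87 after 24 h, against 95.4 ± 2.09 in DMSO (SD, n = 3 each). Their make-up differed between the groups as well, which is given as a description with no test. Ccnd1 made up 31.7 ± 2.06% of this sum at 6 h of riociguat, 40.0 ± 1.19% at 12 h and 45.6 ± 1.63% at 24 h, against 42.3 ± 0.647% in DMSO. Ccnd2 made up 58.1 ± 1.77%, 49.6 ± 1.19% and 45.0 ± 1.86% at 6, 12 and 24 h of riociguat, against 49.5 ± 0.675% in DMSO. In single libraries the Ccnd1 share lay between 29.5% and 33.5% at 6 h and between 44.1% and 47.3% at 24 h, on either side of the 41.6% to 42.7% in DMSO. With the longest transcript as the length, the Ccnd1 share was 26.8%, 34.1% and 39.4% at 6, 12 and 24 h, against 36.6% in DMSO, in the same order.

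**Figure D2:**
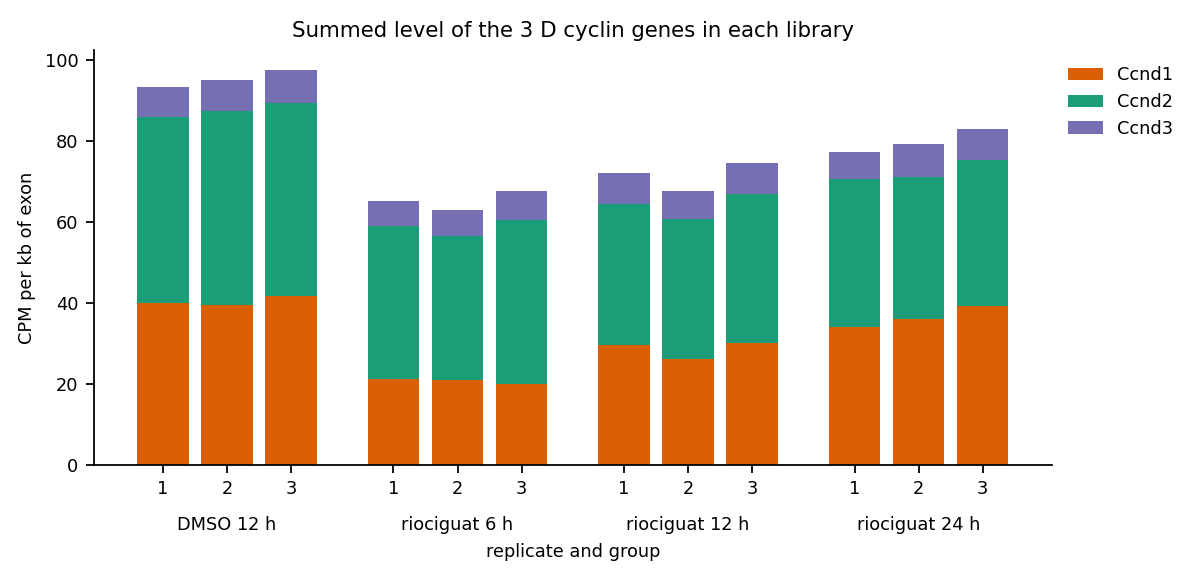
Summed level of Ccnd1, Ccnd2 and Ccnd3 in CPM per kb of exon (vertical axis, from 0), 1 stacked bar per library. The sum averages 65.3 at 6 h of riociguat, 71.5 at 12 h and 79.9 at 24 h, against 95.4 in DMSO, and the Ccnd1 part of the bar is smallest at 6 h.

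Of the kinases that D cyclins activate, Cdk6 fell and Cdk4 was not called. Cdk6 (ENSMUSG00000040274, chromosome 5, 3341485 to 3531008, plus strand) had 35.4, 37.1 and 43.6 CPM after 6 h of riociguat, 44.8, 42.7 and 48.3 CPM after 12 h, and 40.2, 43.4 and 43.1 CPM after 24 h, against 58.7, 55.6 and 57.0 CPM in DMSO. No riociguat library reached the lowest DMSO library. The log2 fold change was -0.55 ± 0.08 at 6 h, -0.34 ± 0.07 at 12 h and -0.44 ± 0.08 at 24 h (SE, edgeR adjusted p = 0.000119, 0.00988 and 0.000729). The 12 h call was lost without riociguat 12 h replicate 2 (edgeR adjusted p = 0.0919).

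Cdk4 (ENSMUSG00000006728, chromosome 10, 127063534 to 127067920, plus strand) had 283, 262 and 249 CPM after 6 h of riociguat, 288, 276 and 271 CPM after 12 h, and 286, 289 and 293 CPM after 24 h, against 278, 293 and 302 CPM in DMSO. The groups overlapped at all 3 exposures. Its log2 fold change was -0.14 ± 0.05 at 6 h, -0.06 ± 0.05 at 12 h and -0.01 ± 0.05 at 24 h (SE, edgeR adjusted p = 0.0929, 0.58 and 0.954), and at 12 h the 95% interval reached from -0.17 to 0.04. The 6 h value passed the test without DMSO replicate 1 (edgeR adjusted p = 0.0446) or without riociguat 6 h replicate 1 (edgeR adjusted p = 0.0258). Cdk4 shares 641 of its 3249 exon bases with Tspan31 on the opposite strand, whose log2 fold change at 6 h was -0.13 ± 0.05 (edgeR adjusted p = 0.0942).

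Among the inhibitors, Cdkn2b and Cdkn1b each rose at 1 exposure. Cdkn2b encodes p15Ink4b, an INK4 inhibitor known as a target of TGF-beta signalling in epithelial cells (ENSMUSG00000073802, chromosome 4, 89306299 to 89311039, minus strand). It had 19.2, 17.4 and 17.3 CPM after 6 h of riociguat, 17.3, 18.0 and 16.1 CPM after 12 h, and 17.5, 16.02 and 14.2 CPM after 24 h, against 13.2, 14.7 and 14.2 CPM in DMSO. The 6 h and 12 h libraries all lay above DMSO, while the 24 h libraries overlapped it. The log2 fold change was 0.35 ± 0.09 at 6 h, a fold of 1.27 (SE, edgeR adjusted p = 0.0268), 0.29 ± 0.09 at 12 h (edgeR adjusted p = 0.0971) and 0.18 ± 0.10 at 24 h (edgeR adjusted p = 0.241). The 6 h call was lost when any 1 of the 6 libraries was left out (edgeR adjusted p between 0.0503 and 0.0857).

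Cdkn1b encodes p27Kip1 (ENSMUSG00000003031, chromosome 6, 134920401 to 134925513, plus strand). It had 30.9, 28.7 and 30.2 CPM after 6 h of riociguat, 30.5, 32.1 and 28.1 CPM after 12 h, and 34.7, 32.0 and 33.7 CPM after 24 h, against 30.2, 24.4 and 24.8 CPM in DMSO. DMSO replicate 1 lay within the 6 h and 12 h libraries, and all 24 h libraries lay above DMSO. The log2 fold change was 0.18 ± 0.09 at 6 h, 0.19 ± 0.08 at 12 h and 0.34 ± 0.08 at 24 h (SE, edgeR adjusted p = 0.221, 0.245 and 0.0117), a fold of 1.27 at 24 h. Without DMSO replicate 1, which stood apart, it was also called at 6 h (log2 fold change 0.28, edgeR adjusted p = 0.0331) and at 12 h (0.30, edgeR adjusted p = 0.0312). Without DMSO replicate 2 or 3 the 24 h call was lost (edgeR adjusted p = 0.0747 and 0.0515).

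Cdkn2c, which encodes p18Ink4c (ENSMUSG00000028551, chromosome 4, 109660876 to 109667189, minus strand), was not called at any exposure. It averaged 7.995 ± 0.831 CPM at 6 h of riociguat, 9.32 ± 1.152 CPM at 12 h and 10.1 ± 1.34 CPM at 24 h, against 9.18 ± 1.35 CPM in DMSO (SD, n = 3 each). Cdkn2a (ENSMUSG00000044303, chromosome 4, 89274471 to 89294653, minus strand) had the lowest level of the set, with 36 to 66 counts a library. It averaged 2.72 ± 0.519 CPM at 6 h of riociguat, 2.07 ± 0.241 CPM at 12 h and 2.55 ± 0.686 CPM at 24 h, against 2.16 ± 0.905 CPM in DMSO. At this depth its 95% interval at 12 h reached from -0.70 to 0.59 on the log2 scale, so that a change of moderate size in either direction was not detectable. Counts per gene do not separate its products p16Ink4a and p19Arf.

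Rb1 (ENSMUSG00000022105, chromosome 14, 73183673 to 73325822, minus strand) averaged 32.4 ± 1.82 CPM at 6 h of riociguat, 33.5 ± 2.98 CPM at 12 h and 35.5 ± 4.73 CPM at 24 h, against 30.8 ± 3.77 CPM in DMSO. It was not called at any exposure (edgeR adjusted p = 0.723, 0.636 and 0.222), and its groups overlapped. It shares 408 exon bases with Lpar6 and 488 with Rcbtb2, both on the opposite strand, out of 6015. Lpar6 rose at 6 h (log2 fold change 0.52 ± 0.08, edgeR adjusted p = 0.000375).

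Counted over the set, 5 of 10 genes were called after 6 h of riociguat, 4 lower and 1 higher, while 9.72% of all tested genes were called in that comparison, 5.24% lower and 4.48% higher. At 12 h, 3 of 10 were called, all lower, beside 5.66% of all tested genes, 3.48% lower and 2.18% higher. At 24 h, 3 of 10 were called, 2 lower and 1 higher, beside 13.4% of all tested genes, 7.41% lower and 5.94% higher. Groups that did not overlap were common among all tested genes, at 25.7% of them at 6 h, 22.4% at 12 h and 28.3% at 24 h. No member rose at 12 h in edgeR or DESeq2, and 2 were higher there at an unadjusted p under 0.05, which are Cdkn1b and Cdkn2b. The median log2 fold change of the 10 genes was -0.17 at 6 h, -0.06 at 12 h and 0.06 at 24 h, beside medians within 0.01 of 0 for all tested genes. The count at 6 h was 3 without DMSO replicate 2, DMSO replicate 3 or riociguat 6 h replicate 2, in each case Ccnd1, Ccnd2 and Cdk6. It was 2 at 12 h without riociguat 12 h replicate 2 (Ccnd1 and Ccnd2), and 2 at 24 h without DMSO replicate 2 or DMSO replicate 3 (Ccnd2 and Cdk6).

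**Figure D3:**
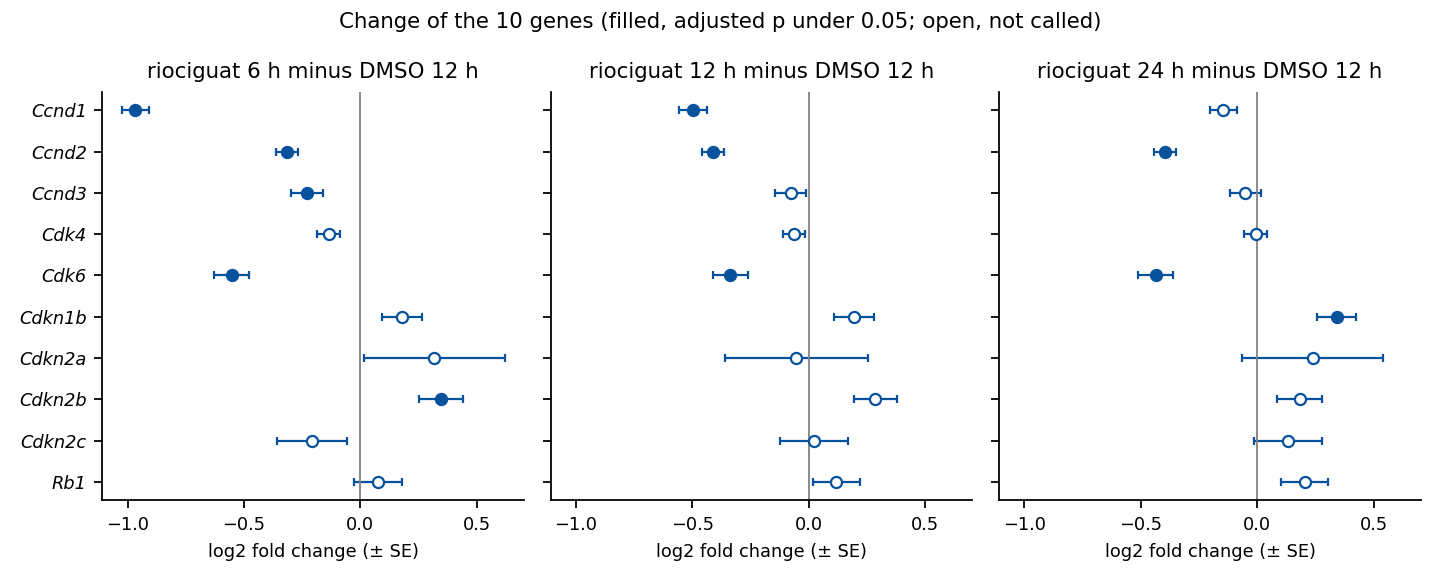
Log2 fold change of each gene against DMSO 12 h (horizontal axis, bars are SE) after 6, 12 and 24 h of riociguat, with filled points for genes called at adjusted p under 0.05. Ccnd1 lies at -0.97, -0.50 and -0.15, while Ccnd2 and Cdk6 are filled in all 3 panels.

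Between exposures, Ccnd1 was the only gene of the set that was called. It was higher at 12 h than at 6 h (log2 fold change 0.47 ± 0.06, SE, edgeR adjusted p = 7.6e-05), at 24 h than at 12 h (0.35 ± 0.06, edgeR adjusted p = 0.00179) and at 24 h than at 6 h (0.82 ± 0.06, edgeR adjusted p = 6.4e-08). Its libraries of 6, 12 and 24 h did not overlap, which held for 23.9%, 19.7% and 29.8% of all tested genes in these comparisons. Thus 1 of 10 genes was called in each of these comparisons, beside 6.09% of all tested genes for 12 h over 6 h, 3.08% for 24 h over 12 h and 15.3% for 24 h over 6 h.

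Ccnd2 did not pass the test between any pair of exposures, and for 24 h over 12 h the 95% interval of its log2 difference was -0.08 to 0.12. Cdk6 was 0.22 ± 0.08 higher at 12 h than at 6 h on the log2 scale (edgeR adjusted p = 0.121) and passed the test there without riociguat 6 h replicate 3 (edgeR adjusted p = 0.0248). Cdkn1b was 0.16 higher at 24 h than at 6 h on the log2 scale (edgeR adjusted p = 0.233). Cdk4 at 24 h over 6 h had a log2 difference of 0.13 (edgeR adjusted p = 0.0869). It passed with library totals alone (edgeR adjusted p = 0.0356), in DESeq2 (adjusted p = 0.0341) and without riociguat 6 h replicate 1 (edgeR adjusted p = 0.0181). Tspan31, which shares exon bases with Cdk4, was itself called higher at 24 h than at 6 h (0.17 ± 0.05, edgeR adjusted p = 0.0171). Ccnd3 at 24 h over 6 h had a log2 difference of 0.18 (edgeR adjusted p = 0.093), and passed without riociguat 6 h replicate 3 (edgeR adjusted p = 0.0456) or riociguat 24 h replicate 1 (edgeR adjusted p = 0.0214).

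Levels of different genes were compared in CPM per kb of exon. In DMSO, Cdk4 stood highest with 89.5 ± 3.67, then Ccnd2 with 47.2 ± 1.11 and Ccnd1 with 40.4 ± 1.10 (SD, n = 3). The others followed at 10.1 ± 0.538 for Cdkn2b, 7.80 ± 0.259 for Ccnd3, 5.81 ± 0.712 for Cdkn1b, 5.13 ± 0.627 for Rb1, 4.08 ± 0.109 for Cdk6, 3.42 ± 0.504 for Cdkn2c and 1.84 ± 0.772 for Cdkn2a. Cdkn1b and Rb1 were the only neighbours in this order whose libraries overlapped. Cdk4 led in all 4 groups, whereas Ccnd1 and Ccnd2 overlapped at 24 h of riociguat, with 36.5 ± 2.62 and 35.9 ± 0.690. At 6 h they stood apart, with 20.7 ± 0.681 for Ccnd1 and 37.96 ± 2.48 for Ccnd2. With the longest transcript as the length, Ccnd1 stayed below Ccnd2 at 24 h, with means of 45.95 and 53.4 and a ratio of 0.794 to 0.922 in the 3 libraries, and Ccnd3 came before Cdkn2b and Rb1 before Cdkn1b in DMSO.

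The genes with the most similar pattern were looked up for Ccnd1, Ccnd2 and Cdk6 over the 12 libraries, by Pearson's r of log2(CPM + 1) among 10703 genes. The libraries share their groups, so these values describe likeness and carry no test. For Ccnd1 they were Vegfc (r = 0.967), Sema6d (r = 0.966) and the replication helicase gene Mcm3 (r = 0.964). Vegfc, a growth factor of lymphatic vessels, averaged 26.2, 33.4 and 39.6 CPM at 6, 12 and 24 h of riociguat, against 41.2 CPM in DMSO. For Ccnd2 they were Dlc1 (r = 0.985), Parva (r = 0.980), an actin-linked partner of integrin-linked kinase, and the tubulin gene Tubb6 (r = 0.973). Dlc1 averaged 174, 165 and 163 CPM at 6, 12 and 24 h of riociguat, against 225 CPM in DMSO. For Cdk6 they were Itga3 (r = 0.936), Fat1 (r = 0.923) and Ttll12 (r = 0.916).

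A link between the D cyclins and the genes of DNA replication that E2F drives was not tested. These replication genes were lower than in DMSO at 6 h and were not called against DMSO later. Of 30 such genes, 23 fell and 0 rose after 6 h of riociguat, beside 5.24% and 4.48% of all tested genes. The 30 genes had a median log2 fold change of -0.42 there. The fallen genes include Uhrf1, which maintains DNA methylation (log2 fold change -0.69 ± 0.07, edgeR adjusted p = 2.31e-06), and the replication helicase genes Mcm5 (-0.65 ± 0.07, edgeR adjusted p = 6.52e-06) and Mcm7 (-0.44 ± 0.05, edgeR adjusted p = 1.12e-05). At 12 h, 0 of 30 were called in edgeR and 0 in DESeq2, with 4 lower at an unadjusted p under 0.05 and a median of -0.06. At 24 h, 0 were called in edgeR and 0 in DESeq2, with 3 higher at an unadjusted p under 0.05 and a median of 0.07. Tested between exposures, 16 of the 30 were higher at 12 h than at 6 h, beside 6.09% of all tested genes called in either direction. At 24 h, 26 were higher than at 6 h, beside 15.3% of all tested genes called.

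Of 21 mitosis genes, 10 fell at the shortest exposure and 10 rose at the longest, beside 5.24% and 5.94% of all tested genes. In each case 11 of the 21 were not called. At 6 h the median log2 fold change was -0.52 with 0 risen, and the count of fallen genes was 6 without riociguat 6 h replicate 3. At 12 h, 0 were called in edgeR, 0 in DESeq2 and 0 at an unadjusted p under 0.05. At 24 h the median was 0.49 with 0 fallen, and the count of risen genes was 6 without riociguat 24 h replicate 1. Mki67, the proliferation marker, averaged 24.9 ± 2.97 CPM at 6 h of riociguat, 43.2 ± 2.66 CPM at 12 h and 65.3 ± 5.45 CPM at 24 h, against 45.7 ± 1.90 CPM in DMSO (SD, n = 3 each). It fell at 6 h (log2 fold change -0.87 ± 0.09, edgeR adjusted p = 3.79e-06) and rose at 24 h (0.52 ± 0.08, edgeR adjusted p = 0.000307). Top2a and Cdk1 also fell at 6 h, by 0.74 and 0.76 on the log2 scale (edgeR adjusted p = 5.44e-05 and 0.000508), and Top2a and Plk1 rose at 24 h, by 0.49 and 0.69 (edgeR adjusted p = 0.00121 and 0.00448). All 21 were called higher at 24 h than at 6 h, beside 15.3% of all tested genes called there in either direction.

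**Figure D4:**
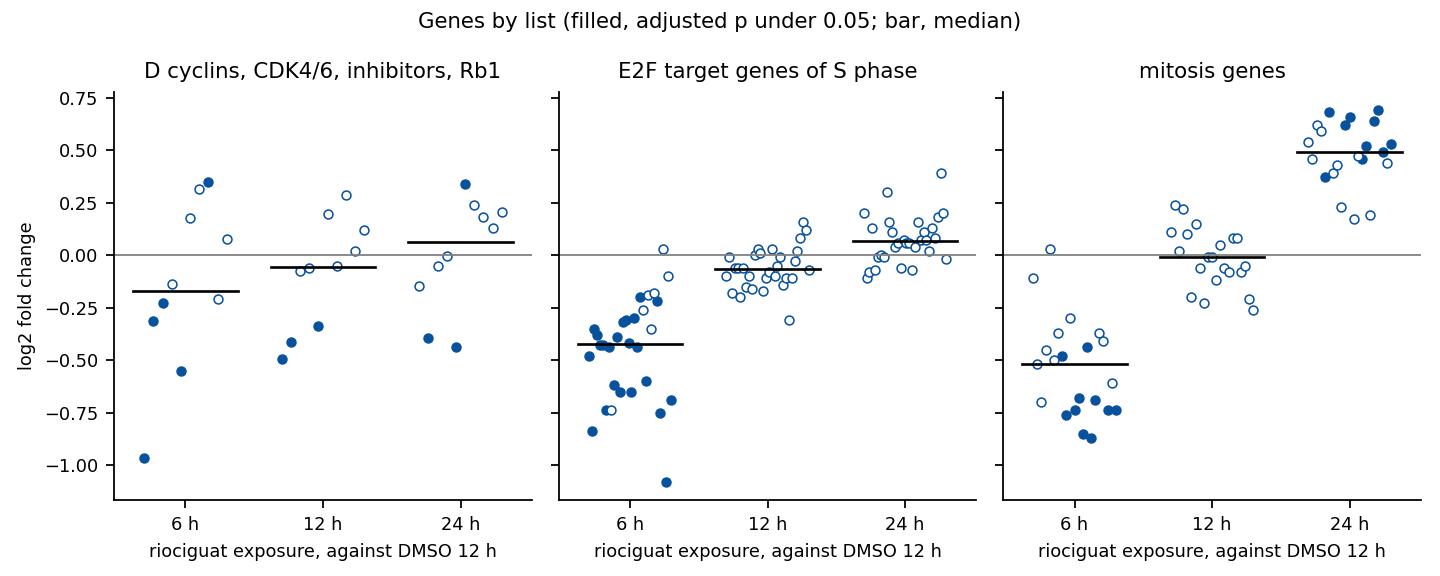
Log2 fold change against DMSO 12 h (vertical axis) at 6, 12 and 24 h of riociguat for the 10 genes of the set, 30 E2F target genes of S phase and 21 mitosis genes, 1 point per gene, filled where called, with the median as a bar. The S phase median is -0.42 at 6 h and 0.07 at 24 h, the mitosis median is -0.52 at 6 h and 0.49 at 24 h, and the 10 genes spread to both sides of 0 at each exposure.

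Of 19 other regulators of G1 and S phase, 3 fell and 1 rose at 6 h, 1 fell at 12 h, and 2 fell and 1 rose at 24 h, beside 9.72%, 5.66% and 13.4% of all tested genes called in these comparisons. These small counts rest on single libraries: the 6 h fall was 1 without replicate 2 or 3 of the 6 h group or with only the compared groups in the fit, and the 12 h fall was 0 without riociguat 12 h replicate 2. Ccna2, the S and G2 phase cyclin A2, had 9.36, 8.98 and 8.93 CPM at 6 h of riociguat, 13.6, 14.8 and 12.3 CPM at 12 h, and 21.1, 19.3 and 18.3 CPM at 24 h, against 15.8, 13.5 and 14.8 CPM in DMSO. All 6 h libraries lay below DMSO and all 24 h libraries above it. Ccna2 fell at 6 h (log2 fold change -0.70 ± 0.10, edgeR adjusted p = 0.000241) and rose at 24 h (0.41 ± 0.10, edgeR adjusted p = 0.00789), which did not pass once DMSO replicate 2 was left out (edgeR adjusted p = 0.0535). Ccne1, which encodes cyclin E1, fell at 6 h (-0.59 ± 0.16, edgeR adjusted p = 0.0274), a call lost with only the compared groups or without DMSO replicate 2 or replicate 2 or 3 of the 6 h group (edgeR adjusted p between 0.0597 and 0.156). Ccne2 had -0.61 ± 0.20 there and was not called (edgeR adjusted p = 0.0631), but passed in DESeq2 (adjusted p = 0.0409), with no low-count filter (edgeR adjusted p = 0.00683) and without DMSO replicate 2 (edgeR adjusted p = 0.0497).

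Cdk7, of the CDK-activating kinase, rose at 6 h (0.21 ± 0.06, edgeR adjusted p = 0.0306), and lost the call when any 1 of the 6 libraries was left out (edgeR adjusted p between 0.0516 and 0.0948). Ccng1, a p53 target, fell at 6 h and 24 h (-0.22 ± 0.06 and -0.20 ± 0.06, edgeR adjusted p = 0.0369 and 0.0445). The 24 h call of Ccng1 was lost with RLE factors, library totals alone, the replicate block, only the compared groups, and without every library but DMSO replicate 3 (edgeR adjusted p between 0.0565 and 0.183). Its 6 h call was lost with the replicate block (edgeR adjusted p = 0.0608), only the compared groups, and without every library but DMSO replicate 3.

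Cdkn1a, the p21Cip1 gene and close relative of Cdkn1b, fell at 12 h and 24 h. It had 799.6, 728 and 758 CPM after 6 h of riociguat, 719, 682 and 703 CPM at 12 h, and 628, 660.5 and 648 CPM at 24 h, against 773, 847 and 838 CPM in DMSO. The 12 h and 24 h libraries lay below all DMSO libraries. The log2 fold change was -0.11 ± 0.05 at 6 h (edgeR adjusted p = 0.17), -0.22 ± 0.05 at 12 h (edgeR adjusted p = 0.00524) and -0.34 ± 0.05 at 24 h (edgeR adjusted p = 5.49e-05). The 12 h call was lost without riociguat 12 h replicate 2 (edgeR adjusted p = 0.0511), and Cdkn1a was also called at 6 h without DMSO replicate 1 (edgeR adjusted p = 0.0459).

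Of 12 genes of the pocket protein and E2F family other than Rb1, 2 fell at 6 h and 1 rose at 24 h. At 12 h, 0 were called in edgeR and 0 in DESeq2, with 1 higher at an unadjusted p under 0.05. Called genes made up 9.72%, 5.66% and 13.4% of all tested genes at 6, 12 and 24 h. E2f1 fell at 6 h, with 7.84 ± 0.292 CPM under riociguat and 12.4 ± 0.663 CPM in DMSO (log2 fold change -0.67 ± 0.11, edgeR adjusted p = 0.000763). E2f8 fell as well (-0.92 ± 0.21, edgeR adjusted p = 0.0102), except without DMSO replicate 2 or riociguat 6 h replicate 3 (edgeR adjusted p = 0.0576 and 0.0612). The E2F partner Tfdp2 rose at 24 h (0.31 ± 0.09, edgeR adjusted p = 0.0251), except when DMSO replicate 1 or 3, or replicate 2 or 3 of the 24 h group, was left out (edgeR adjusted p between 0.0526 and 0.103). Of 25 genes known to regulate D cyclins or CDK inhibitors, 7 fell and 1 rose at 6 h. At 12 h 5 fell, and at 24 h 9 fell and 1 rose. The shares of all tested genes were 5.24% fallen and 4.48% risen at 6 h, and 3.48% and 2.18% at 12 h. At 24 h they were 7.41% and 5.94%. The 6 h count of fallen regulators was 3 with only the compared groups or without DMSO replicate 3. It was 4 without DMSO replicate 2 or riociguat 6 h replicate 2. Myc, a transcription factor that induces D cyclins, averaged 204 ± 8.61 CPM at 6 h of riociguat, 189 ± 8.47 CPM at 12 h and 179 ± 6.77 CPM at 24 h, against 229 ± 0.638 CPM in DMSO. It fell at all 3 exposures (edgeR adjusted p = 0.0317, 0.000831 and 4.73e-05), but the 6 h call was lost with only the compared groups or without any 1 library other than riociguat 6 h replicate 3 (edgeR adjusted p between 0.0515 and 0.146).

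Smad3, which carries TGF-beta signals, fell at 6 h (log2 fold change -0.40 ± 0.05, edgeR adjusted p = 5.06e-05). Mdm2, the ligase that marks p53 for degradation, fell at 6, 12 and 24 h (-0.27 ± 0.04, -0.24 ± 0.04 and -0.35 ± 0.04, edgeR adjusted p = 0.00032, 0.00106 and 1.52e-05). The zinc finger factor Klf6 fell at 12 h and 24 h (-0.33 ± 0.04 and -0.52 ± 0.04, edgeR adjusted p = 4.58e-05 and 1.63e-07). The serum response factor gene Srf fell at 6, 12 and 24 h (-0.27 ± 0.07, -0.64 ± 0.07 and -0.57 ± 0.07, edgeR adjusted p = 0.0245, 1.57e-05 and 3.35e-05), with the 6 h call lost in 5 alternatives (edgeR adjusted p between 0.0716 and 0.138). These were only the compared groups, and leaving out replicate 2 or 3 of DMSO or of the 6 h group. The immediate early gene Egr1 fell at 12 h and 24 h (-0.20 ± 0.05 and -0.73 ± 0.05, edgeR adjusted p = 0.0289 and 6.67e-08). Its 12 h call was lost with library totals alone, only the compared groups, and without any 1 library but DMSO replicate 1 (edgeR adjusted p between 0.0542 and 0.221). At 6 h Egr1 had 0.16 ± 0.05 (edgeR adjusted p = 0.0618) and was called higher in DESeq2 (adjusted p = 0.0436) and without DMSO replicate 3 (edgeR adjusted p = 0.0273). Klf4 rose at 6 h (0.33 ± 0.06, edgeR adjusted p = 0.00204) and fell at 24 h (-0.53 ± 0.06, edgeR adjusted p = 1.81e-05).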

How the data were processed

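RNA sequencing measured gene expression in 12 libraries, 3 in each of 4 groups assigned from the titles in the labels. The authors deposited expected counts per gene, which were whole numbers, so that rounding changed 0 values. Per the submitters' processing notes, FastQC, fastp, Salmon and DESeq2 were used with GRCm38, and versions, annotation and strand setting are not given in the sources used here. Salmon shares reads between similar transcripts, so counts of overlapping genes are uncertain. Symbols were matched for 53355 of 53452 genes, and positions come from GENCODE vM21.

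Low counts were removed with filterByExpr and libraries scaled with TMM factors. A single quasi-likelihood model of the 12 libraries, with 1 coefficient per group, was fitted in edgeR 4.0.16 (R 4.3.3, glmQLFit) and each comparison tested two-sided with glmQLFTest. Benjamini-Hochberg adjustment ran over all 16036 tested genes within each of 6 comparisons, and genes under 0.05 were called. The SE of a log2 fold change is its size divided by the root of F, and intervals are at 95%. CPM were computed from the deposited counts. Library totals of 12953096 to 27358893 counts set the precision. The steps were tested on simulated data.

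The 10 genes and all lists were chosen with earlier results of these data known. The text names all 10 genes, the 3 called genes with the smallest p of each list in each comparison with DMSO, Cdkn1a, Ccne1, Ccne2, Ccna2, E2f1 and Myc whatever their p, and the 3 genes most correlated with each of 3 members, among genes with a mean of at least 5 CPM. Alternatives were RLE factors, library totals alone, no filter, DESeq2 1.42.0, only the compared groups, a replicate block, and each library left out in turn. List counts and the calls of named list genes under these were added after seeing the data.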

Additional observations from a re-analysis of the deposited data

Results flagged for a closer look

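The level of Ccnd1 differed between the riociguat groups by a direct test of each pair. These tests compare riociguat groups only, but all 12 libraries, DMSO among them, share the scaling and the estimate of spread. Ccnd1 was called for each pair in all 12 alternatives, which include a fit of the compared groups alone. The log2 difference was 0.47 for 12 h over 6 h (edgeR adjusted p = 7.6e-05), 0.35 for 24 h over 12 h (edgeR adjusted p = 0.00179) and 0.82 for 24 h over 6 h (edgeR adjusted p = 6.4e-08), with all 3 libraries of the longer exposure above all 3 of the shorter one. The time between the medium change and the addition of riociguat differs between these groups as well, and the share of each in the difference cannot be told apart.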

How the results depend on the processing

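Values for the 10 genes, taken over 6 comparisons and 12 alternatives each, numbered 720. Of these, 696 kept their side of the threshold, 14 lost the call, 10 gained it and 0 called values changed sign. Most of the 720 belong to results that were not called, which lowers the share of lost calls. All lost calls were against DMSO. Cdkn2b and Ccnd3 at 6 h kept the call in 6 and 7 of 12 alternatives. Cdkn1b at 24 h kept it in 10 and Cdk6 at 12 h in 11. Some values that were not called did change sign, such as Cdk4 at 24 h against DMSO in 3 of 12 alternatives. Against DMSO, Ccnd1 at 6 h and 12 h and Cdk6 at 6 h and 24 h were called in all 12 alternatives. So was Ccnd2 at 6, 12 and 24 h. With a library left out, the number of genes called ranged from 3 to 6 at 6 h, 2 to 4 at 12 h and 2 to 3 at 24 h against DMSO, from 1 to 2 for 12 h over 6 h, from 1 to 1 for 24 h over 12 h and from 1 to 2 for 24 h over 6 h. With library totals alone or in DESeq2 it was 2 for 24 h over 6 h, Ccnd1 and Cdk4. Counts over all genes moved by more than 1.5 times when single libraries were left out, to 510 of 907 at 12 h (without riociguat 12 h replicate 2), 955 of 1559 at 6 h and 1395 of 2141 at 24 h (both without DMSO replicate 2). For 12 h over 6 h the count moved from 976 to 596 (without riociguat 12 h replicate 2) and for 24 h over 12 h from 494 to 318 (without riociguat 12 h replicate 1) or 838 (no filter). The cause was not tested. Scaling moved the median of all genes by at most 0.03.

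Deviations of libraries with the same replicate number correlated at -0.20 to 0.17, with 3 of 18 over 0.1. Those with different numbers correlated at -0.14 to 0.15, with 3 of 36 over 0.1. These ranges show no clear pairing by number, but with 3 libraries in a group they cannot exclude it. With the replicate block, the same genes of the set were called as without it, 5 at 6 h, 3 at 12 h and 3 at 24 h against DMSO. Of the named genes of the pathway lists, Ccng1 alone changed its call against DMSO with the block.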
